A study of Mus musculus with 6 samples.

Results

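CpG-rich stretches of the genome that carried little or no methylation in control male germ cells were compared between Tex15KO pups and their Tex15HT and Tex15WT controls. The autosomes were divided into tiles of 1000 bp, counted from position 1 of each chromosome (mouse build mm9), with the calls of both strands merged. A tile counted as CpG-rich when it held 10 or more CpGs and every one of the 6 samples gave it 10 or more calls. It was a member when under 20% of its calls, pooled over the 4 control samples, were methylated. This gave 31372 members of 98430 CpG-rich tiles (31.9%). They made up 9.50% of the 330110 tiles with 3 or more CpGs that were tested across the series. The level in the controls therefore chose the members, and that level is given below as a description only. Without any minimum on calls, 40952 tiles passed the same threshold.

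The DNA came from Tex15KO pups 3 and 16 (Tex15-/-), Tex15HT pups 7 and 18 (Tex15+/-) and Tex15WT pups 8 and 9 (Tex15+/+), all male, at postnatal day 2.5. All pups came from matings between heterozygous parents, had a mixed strain background and carried an Oct4-GFP reporter, by which the germ cells were sorted. Each sample was a single pup, so that there were 2 animals per genotype, and about 10 ng of its DNA was converted with bisulfite. Whole-genome bisulfite sequencing reads an unmethylated cytosine as T and a methylated one as C, and a methylation level is the share of calls that read C. In DNA pooled from many cells, full methylation in a few cells and partial methylation in all of them cannot be told apart.

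Most CpGs of a mammalian genome are methylated, and CpG islands, the CpG-dense stretches at which many promoters lie, are the main exception. In the male germ line, methylation is erased in the embryo and laid down again in prospermatogonia before and around birth, while CpG islands and the loci imprinted through the egg stay unmethylated. TEX15 is a nuclear protein that acts with the PIWI protein MIWI2 and piRNAs in the methylation of young retrotransposons at that stage.

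Members often held promoters. To find them, 300 bp promoter windows of RefSeq (GRCm38.p6; 250 bp before to 50 bp after a gene's start) were tied to the mm9 data by the spacing of their CpGs, which placed 10938 windows of 9655 genes. A placed promoter lay in 6790 members (21.6%), against 349 of the other CpG-rich tiles (0.520%). Of the CpG-rich tiles with a placed promoter, 95.1% were members. Promoters in members had a median GC content of 63.3%, against 54.3% for those in the other CpG-rich tiles. The 6 promoters printed here each stand for a gene group described below: germ cells, piRNAs, imprinting, body patterning, DNA demethylation and housekeeping. Letters are the strand of the gene, 5′ to 3′, with GRCm38.p6 positions, and each CpG is in capitals.
Stk31 promoter (chr6:49395289-49395588, + strand): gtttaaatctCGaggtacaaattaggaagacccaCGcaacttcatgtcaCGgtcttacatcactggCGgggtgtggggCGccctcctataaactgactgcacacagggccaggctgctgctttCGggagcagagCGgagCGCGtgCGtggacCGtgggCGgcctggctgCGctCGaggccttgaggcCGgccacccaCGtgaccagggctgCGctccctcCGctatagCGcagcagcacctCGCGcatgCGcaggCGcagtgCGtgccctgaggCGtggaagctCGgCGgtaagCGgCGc
Mov10l1 promoter (chr15:88982744-88983043, + strand): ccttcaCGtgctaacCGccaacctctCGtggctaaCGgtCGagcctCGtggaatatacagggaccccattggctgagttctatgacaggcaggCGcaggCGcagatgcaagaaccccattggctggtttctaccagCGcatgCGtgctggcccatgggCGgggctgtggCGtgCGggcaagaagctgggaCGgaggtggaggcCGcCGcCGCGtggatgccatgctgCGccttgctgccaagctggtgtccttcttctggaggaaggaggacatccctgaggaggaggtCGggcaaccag
Mest promoter (chr6:30737800-30738099, + strand): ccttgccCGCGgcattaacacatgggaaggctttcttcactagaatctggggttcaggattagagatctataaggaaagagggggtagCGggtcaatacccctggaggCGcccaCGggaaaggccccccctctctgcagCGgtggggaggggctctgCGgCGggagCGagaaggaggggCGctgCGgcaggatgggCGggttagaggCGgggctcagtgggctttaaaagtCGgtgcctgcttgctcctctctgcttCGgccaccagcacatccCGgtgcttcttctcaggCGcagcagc
Hoxd10 promoter (chr2:74691641-74691940, + strand): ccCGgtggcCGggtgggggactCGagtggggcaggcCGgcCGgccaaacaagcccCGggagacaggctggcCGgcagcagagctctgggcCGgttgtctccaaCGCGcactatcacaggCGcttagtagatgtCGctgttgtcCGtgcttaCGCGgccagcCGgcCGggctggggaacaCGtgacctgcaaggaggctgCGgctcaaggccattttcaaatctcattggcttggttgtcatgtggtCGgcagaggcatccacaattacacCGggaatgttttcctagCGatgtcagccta
Tet2 promoter (chr3:133544341-133544640, - strand): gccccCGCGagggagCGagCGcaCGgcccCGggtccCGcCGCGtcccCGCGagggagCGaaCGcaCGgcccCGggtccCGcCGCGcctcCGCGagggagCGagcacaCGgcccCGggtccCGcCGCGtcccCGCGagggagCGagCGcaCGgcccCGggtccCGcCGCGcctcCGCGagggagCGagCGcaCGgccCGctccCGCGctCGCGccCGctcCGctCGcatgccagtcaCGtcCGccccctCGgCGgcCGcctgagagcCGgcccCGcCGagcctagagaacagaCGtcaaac
Ppia promoter (chr11:6415617-6415916, + strand): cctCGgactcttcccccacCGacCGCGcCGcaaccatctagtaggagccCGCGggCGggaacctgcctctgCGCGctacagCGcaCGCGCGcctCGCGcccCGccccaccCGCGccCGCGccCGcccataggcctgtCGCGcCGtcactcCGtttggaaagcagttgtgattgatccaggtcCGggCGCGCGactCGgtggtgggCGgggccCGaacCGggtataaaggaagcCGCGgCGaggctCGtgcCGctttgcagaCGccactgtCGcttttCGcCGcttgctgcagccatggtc
The letters GGGCGG, bound by Sp and Klf factors, occurred on either strand in 70.7% of the promoters in members, in 28.1% of those in other CpG-rich tiles and in 36.0% of all 31396 autosomal promoter windows. The letters TATAAA occurred in 5.30%, 9.06% and 13.6% of the same 3 sets. The E2F letters TTCCCGC were found in 9.92%, 3.02% and 4.63%. The first and the last of these 3 motifs contain a CpG, and the members were chosen for holding many CpGs, so these shares are not independent of the rule. A match is a match of letters and not a bound site.

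The samples differed in depth, and 1 library stood apart from the rest. Total calls were 27495658 and 52935635 in Tex15KO, 34236130 and 40876698 in Tex15HT and 33019847 and 33944329 in Tex15WT. In the members, 64.4% of CpGs had no call in Tex15KO 3, where the other 5 libraries had 1.40% to 8.89%. Where Tex15KO 3 did have calls, the median was 9 per CpG, against 3 to 4. Among its CpGs with 6 to 10 calls, 96.0% had calls that were all C or all T, where the other libraries had 81.5% to 86.7%. Its level in a single tile thus rests on fewer CpGs than in the other libraries. How far this library's make-up entered each result was not tested beyond the values without it.

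The members were close to unmethylated in every sample. Pooled over all calls, the level was 4.75% and 3.88% in Tex15KO 3 and 16, 3.59% and 4.34% in Tex15HT 7 and 18, and 4.08% and 5.23% in Tex15WT 8 and 9. The groups overlapped, and the highest sample was a wild type. Tex15KO averaged 4.32% ± 0.614, Tex15HT 3.97% ± 0.530 and Tex15WT 4.65% ± 0.812 (SD, n = 2 each). The difference was -0.337 percentage points for Tex15KO minus Tex15WT (exact permutation p = 0.667, two-sided). For Tex15KO minus all 4 controls it was 0.00586 points (exact permutation p = 1), and for Tex15HT minus Tex15WT it was -0.687 points (exact permutation p = 0.667). With 2 samples against 2 the smallest p such a test can give is 0.3333, and with 2 against 4 it is 0.06667. No group difference in level could therefore pass 0.05. The rule also used the Tex15WT and Tex15HT levels, so the differences in members and their p-values are a description only. Without Tex15KO 3, Tex15KO minus Tex15WT was -0.772 points.

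Because the controls chose the members, the level was also read in samples that took no part in the choice. In 31844 tiles chosen on Tex15HT alone, Tex15KO averaged 4.48% ± 0.615 and Tex15WT 5.06% ± 0.875 (SD, n = 2 each), a difference of -0.575 points (exact permutation p = 0.667). In 30613 tiles chosen on Tex15WT alone, Tex15KO averaged 4.27% ± 0.626 and Tex15HT 4.08% ± 0.529, a difference of 0.190 points (exact permutation p = 0.667). After adjustment over the 6 tests of level, all 4 of these p-values from 2 against 2 samples were 0.8.

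The sign of the small difference turned on how tiles were weighted. As a mean over tiles, each tile counting once, Tex15KO stood at 6.28% ± 1.10, Tex15HT at 4.75% ± 0.581 and Tex15WT at 5.76% ± 0.979. That made Tex15KO minus Tex15WT 0.516 points, where pooling gave -0.337. The 18 members with 1000 or more calls in every sample held between 7.05% and 10.9% of all calls in members. Their pooled level was 5.16% and 3.21% in Tex15KO, 6.16% and 9.37% in Tex15HT, and 7.18% and 9.82% in Tex15WT. Both Tex15KO samples lay below all 4 controls there. In the other 31354 members the level was 4.72% and 3.95% in Tex15KO, 3.28% and 3.78% in Tex15HT, and 3.76% and 4.71% in Tex15WT, and Tex15KO minus Tex15WT became 0.0968 points.

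The level fell with the number of CpGs. Members with 10 to 14 CpGs averaged 9.69% ± 0.139 in Tex15KO, 8.05% ± 1.11 in Tex15HT and 9.78% ± 1.80 in Tex15WT. Members with 30 to 49 CpGs averaged 1.94% ± 0.422 in Tex15KO, 1.73% ± 0.155 in Tex15HT and 2.03% ± 0.316 in Tex15WT. In each class up to 29 CpGs, both Tex15KO samples stood above both Tex15HT samples and overlapped with Tex15WT. In members with 50 or more CpGs the pooled level was 2.21% ± 0.656 in Tex15KO, 3.60% ± 0.738 in Tex15HT and 3.81% ± 0.791 in Tex15WT. Those last values carry the deeply covered tiles, and the mean over the same 1881 tiles was 1.28% in Tex15KO, 0.851% in Tex15HT and 1.01% in Tex15WT. Members with a median of 20 CpGs (quartiles 14 and 31, highest 124) thus spanned a range of levels, and 62.6% of them were under 5% in the pooled controls. At the threshold, the 1044 tiles at 18 to 20% in the controls had pooled levels of 18.7% in Tex15KO, 17.7% in Tex15HT and 20.1% in Tex15WT. The 960 CpG-rich tiles just outside it, at 20 to 22%, had 20.2% in Tex15KO, 19.7% in Tex15HT and 22.1% in Tex15WT.

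**Figure D1:**
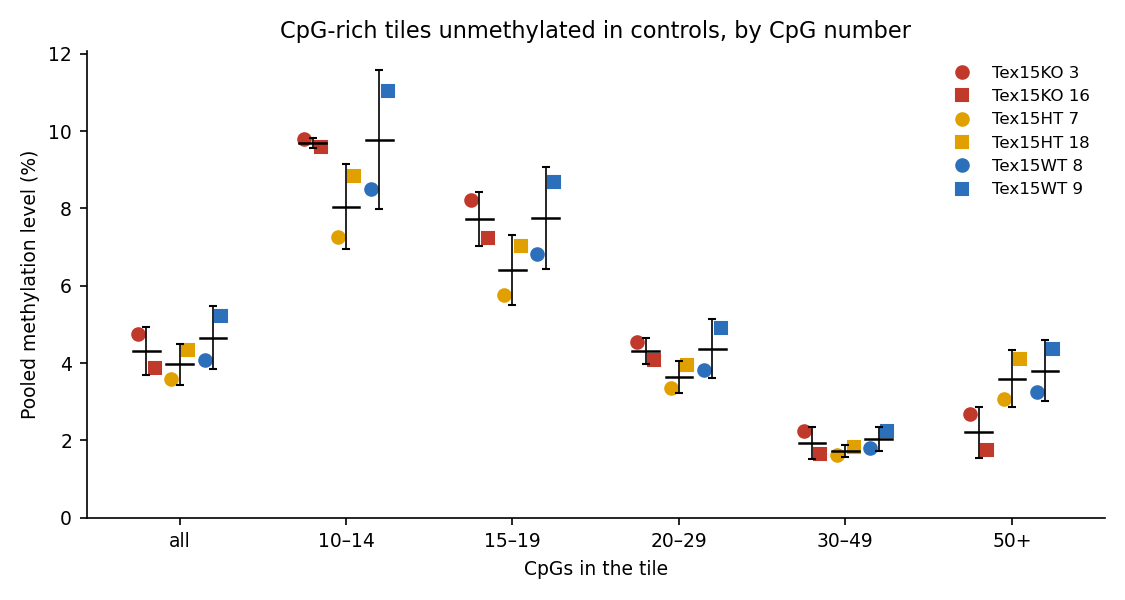
Pooled methylation level (%, vertical axis) of all members and of members grouped by the number of CpGs in the tile (horizontal axis), with 1 point per sample and black bars for the group mean ± SD (n = 2). Levels fall from the group of 10 to 14 CpGs to that of 30 to 49 CpGs in all 3 genotypes, and Tex15KO overlaps with Tex15WT except in tiles of 50 or more CpGs, where it lies below both controls.

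Spread over single tiles differed more than the pooled level did. Members with no methylated call made up 55.8% in Tex15KO 3 and 18.3% in Tex15KO 16, against 35.5% and 25.9% in Tex15HT and 31.8% and 27.4% in Tex15WT. At the other end, 1401 members were at 50% or more in Tex15KO 3 and 21 in Tex15KO 16, against 8 and 4 in Tex15HT and 18 and 36 in Tex15WT. Of the 1401, 19.8% were at 20% or more in Tex15KO 16, against 12.1% and 16.9% in Tex15HT and 16.9% and 22.1% in Tex15WT. The 1401 members at 50% or more in Tex15KO 3 averaged 13.1% in Tex15KO 16, 9.98% and 11.8% in Tex15HT, and 11.4% and 13.4% in Tex15WT. In the other direction, the 1693 members at 20% or more in Tex15KO 16 averaged 20.5% in Tex15KO 3, 12.7% and 14.9% in Tex15HT, and 14.2% and 16.6% in Tex15WT.

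**Figure D2:**
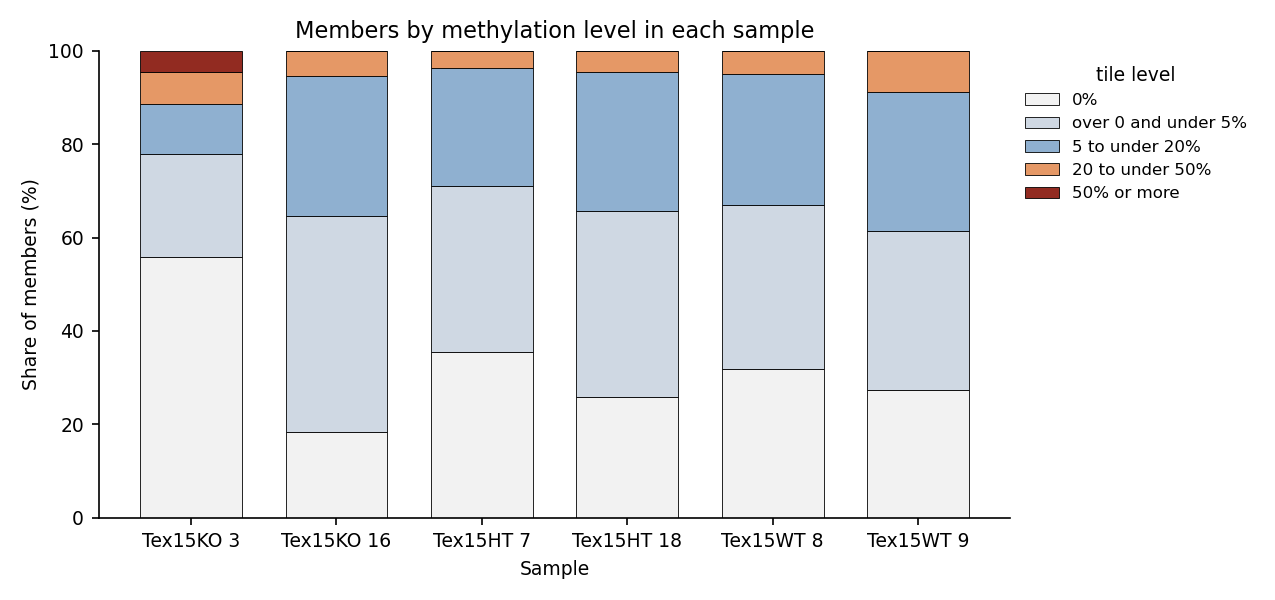
Share of the 31372 members (%, vertical axis) in each class of methylation level, for each sample (horizontal axis). Tex15KO 3 has the largest share at 0% (55.8%) and is the sample with a visible share at 50% or more (1401 tiles).

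Outside the members, methylation returned within 2 kb. The mean level over tiles next to a member was 52.3% and 50.7% in Tex15KO, 49.8% and 50% in Tex15HT and 49.7% and 49.3% in Tex15WT. At a distance of 2 kb it was 83.6% and 82.9% in Tex15KO, 83.1% and 82.1% in Tex15HT, and 82.1% and 79.4% in Tex15WT. Both Tex15KO samples stood above both Tex15WT samples in the 21945 tiles within 2 kb of a member, with a pooled 62.3% ± 1.28 in Tex15KO and 60.0% ± 1.04 in Tex15WT. The difference of 2.27 points had an exact permutation p of 0.3333, the smallest possible, and 0.8 after adjustment over the 6 tests. Without Tex15KO 3 it was 1.36 points, and without Tex15WT 9 it was 1.54 points. Over all tested tiles, Tex15KO minus Tex15WT was 3.67 points pooled and 1.22 points as a mean over tiles. A higher mean in Tex15KO was thus not particular to the flanks. In that pooled value Tex15KO 3 had 58.16% and Tex15KO 16 had 50.37%, against 50.75% and 50.43% in Tex15WT. Tex15WT 9 was the sample with the lowest flanks. In members it had the highest pooled level, while as a mean over tiles Tex15KO 3 was highest, at 7.05% against 6.45% in Tex15WT 9.

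**Figure D3:**
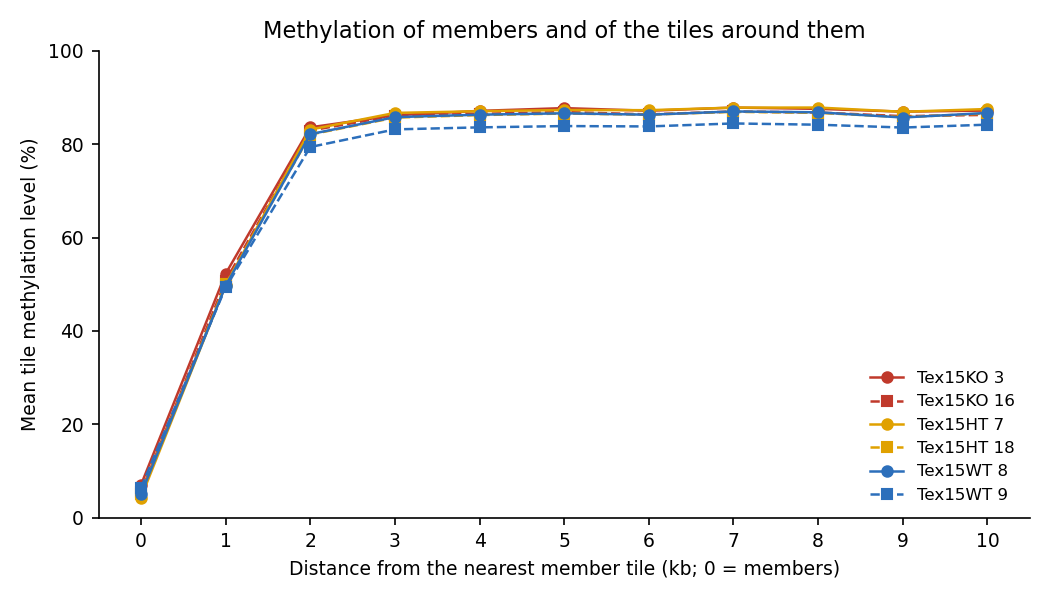
Mean methylation level over tiles (%, vertical axis) in members (distance 0) and in other tiles by distance from the nearest member (kb, horizontal axis), with 1 line per sample. All 6 lines climb to between 79.4% and 83.6% at 2 kb, and the line of Tex15WT 9 runs lowest from there on.

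Members formed 22079 runs of adjoining tiles, of which 15012 were single tiles, 5505 were pairs and 1562 had 3 or more. Tiles inside runs of 3 or more had tile means of 2.43% and 1.78% in Tex15KO, 1.42% and 1.61% in Tex15HT and 1.64% and 1.75% in Tex15WT. Single members had 8.98% and 7.10% in Tex15KO, 5.46% and 6.72% in Tex15HT, and 6.53% and 8.73% in Tex15WT. The longest runs were of 10 tiles, on chromosome 11 (chr11:74978001-74988000, mm9) and chromosome 7 (chr7:144505001-144515000). The run on chromosome 11 held 361 CpGs at 4.87% and 1.44% in Tex15KO, 0.515% and 1.54% in Tex15HT and 1.44% and 1.30% in Tex15WT. The run on chromosome 7 held 331 CpGs at 3.90% and 1.89% in Tex15KO, 2.61% and 1.67% in Tex15HT, and 0.930% and 2.31% in Tex15WT. In both runs Tex15KO 3 was the highest sample and Tex15KO 16 lay within the range of the controls. Of the next longest, 9 tiles on chromosome 4 (chr4:109652001-109661000) with 204 CpGs had 5.38% and 6.01% in Tex15KO, 3.49% and 3.58% in Tex15HT, and 2.82% and 2.29% in Tex15WT. There both Tex15KO samples lay above all 4 controls, a difference that was not tested for the run as a whole. The run of 9 tiles on chromosome 19 (chr19:45303001-45312000) had 1.45% and 1.83% in Tex15KO, 0.698% and 0.689% in Tex15HT, and 1.07% and 1.08% in Tex15WT. Both Tex15KO samples lay above all 4 controls in this run, which was not tested either. Of single members, 4.82% had both Tex15KO samples above all 4 controls and 5.31% had both below. All tested tiles gave 8.24% and 4.32%, and the share of runs in such an order was not counted. A run of 8 tiles on chromosome 14 (chr14:67849001-67857000), the one of that length with the most CpGs, had 2.10% and 1.62% in Tex15KO, 1.78% and 1.74% in Tex15HT, and 1.68% and 2.71% in Tex15WT, and the groups overlapped.

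A further pair of tile classes was compared with the members by exact permutation. With 2 samples against 2 the smallest p is 0.3333, so the test cannot show whether a difference was particular to the members. In 50256 CpG-rich tiles at 80% or more in Tex15HT, Tex15KO averaged 91.5% ± 0.429 and Tex15WT 90.1% ± 2.09 (SD, n = 2 each), a difference of 1.38 points. The members' counterpart chosen on Tex15HT had -0.575 points, so the differences lay -1.96 points apart (exact permutation p = 1). In 6411 tiles of 3 to 9 CpGs under 20% in Tex15HT, Tex15KO averaged 13.2% ± 0.360 and Tex15WT 14.3% ± 2.70, a difference of -1.09 points. That lay 0.517 points from the value of the CpG-rich tiles, again with an exact permutation p of 1.

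Tile by tile, few members passed a test. edgeR's quasi-likelihood test was run on the methylated and unmethylated counts of all 330110 tiles, with Benjamini-Hochberg adjustment at 0.05. For Tex15KO against Tex15WT it called 10 members as lower and 1 as higher (0.0319% and 0.00319%), where all tested tiles gave 0.00939% and 0.000303%. Against Tex15HT, 6 members were lower (0.0191%) and 0 higher in Tex15KO, beside 0.00485% and 0.000909% of all tested tiles. Against the mean of both controls the counts were 11 lower (0.0351%) and 1 higher (0.00319%), beside 0.0382% and 0.000606%. Before adjustment, 503 members (1.60%) lay lower than Tex15WT in Tex15KO at p under 0.05 and 481 (1.53%) lay higher, near the 1.27% and 1.44% of all tested tiles. The same count against Tex15HT was 275 lower (0.877%) and 652 higher (2.08%), beside 1.27% and 0.939% of all tested tiles. In tiles chosen on Tex15WT alone, the shares against Tex15HT were 0.911% lower and 2.00% higher. In tiles chosen on Tex15HT alone, the shares against Tex15WT were 1.77% lower and 1.44% higher. Against both controls, 382 members were lower (1.22%) and 923 higher (2.94%), beside 1.73% and 1.4%. The rule chose the members for low levels in these same controls, so a surplus of higher tiles follows in part from the choice. Between Tex15HT and Tex15WT, 0 members were called, beside 0.00121% lower and 0% higher over all tested tiles. Before adjustment 313 were lower (0.998%) and 116 higher (0.370%) in Tex15HT, beside 0.188% and 0.35%. limma's test on log2 ratios of the counts, each plus 1, called 0 members as lower and 1 as higher for Tex15KO against Tex15WT, beside 0.0963% and 0.000303% of all tested tiles. For Tex15KO against Tex15HT it called 0 lower and 1 higher, beside 0.0612% and 0.00151%, and against both controls 0 lower and 2 higher, beside 0.271% and 0.00576%. It called 0 members between Tex15HT and Tex15WT.

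Of the 11 members called lower in either contrast of Tex15KO with Tex15WT or with both controls, 9 had more than 100 calls per CpG, where a CpG-rich tile typically had 3.2. Of these, 6 adjoin on chromosome 17 (chr17:39980001-39986000, mm9), with medians of 334.5 to 371 calls per CpG. Whether such reads came from many copies of a repeat that were mapped to the same place was not tested. The tile with the most CpGs and the most calls of all members is among the 6, chr17:39982001-39983000, with 124 CpGs. Its level was 4.57% and 3.17% in Tex15KO, 4.29% and 7.11% in Tex15HT, and 5.49% and 7.22% in Tex15WT, from between 38364 and 69990 calls per sample. Its Tex15KO and Tex15HT samples overlapped, and both Tex15KO samples lay below both Tex15WT samples. edgeR gave an adjusted p of 4.41e-06 for Tex15KO against Tex15WT, and limma gave an adjusted p of 0.803. limma called none of the 11, and why the tests differ was not tested.

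Tile chr1:193220001-193221000, at 101 CpGs, was also called lower, with a median of 5.28 calls per CpG. Its level was 0% and 0.256% in Tex15KO, 5.56% and 3.41% in Tex15HT, and 8.67% and 7.49% in Tex15WT. The 3 genotypes did not overlap, and Tex15HT lay between the others. Tex15KO 3 had 0 methylated of 239 calls, which would allow a level of up to 1.26% if each call counted separately. Calls on the same read do not, so the limit may be higher. The start of Ppp2r5a, which encodes a regulatory subunit of protein phosphatase PP2A, lay 0.419 kb from its centre. The adjusted p for Tex15KO against Tex15WT was 0.0175 with edgeR and 0.130 with limma. edgeR also called it against both controls together (adjusted p = 0.00855). That result did not hold without the CpGs in the top 0.1% of coverage, where the difference was -5.45 points in place of -6.15 (adjusted p = 0.729), and without any one control (0.0931 to 0.307). Of its neighbours, the tile before it was at 0% in both Tex15KO and both Tex15HT samples and at 1.92% and 0% in Tex15WT. The last of the 11, chr13:9833001-9834000, was called against both controls together (edgeR adjusted p = 0.0452, limma 0.191). It had 3.08% and 0.892% in Tex15KO, 23.3% and 18.7% in Tex15HT, and 11.9% and 22.1% in Tex15WT.

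One member was called higher by both tests, chr8:49427001-49428000, with 10 CpGs. It was fully methylated in Tex15KO, at 100% of 24 calls and 100% of 35 calls. Tex15HT had 50% of 14 calls and 10.3% of 29 calls, and Tex15WT had 8% of 25 calls and 3.57% of 28 calls. The 95% Wilson interval of Tex15KO 3, the smaller of the 2 counts, began at 86.2%, and that of Tex15HT 7 ended at 73.2%. Such intervals treat each call as separate and leave out differences between pups. Calls on the same read are not separate, and these PCR reads carry no molecular identifiers, so the intervals may be too narrow. The adjusted p for Tex15KO against Tex15WT was 0.0372 with edgeR and 0.0151 with limma. The rule used the control levels, so these p-values are a description only. In tiles chosen on Tex15HT alone, both tests called 0 tiles as higher in Tex15KO than in Tex15WT. In tiles chosen on Tex15WT alone, edgeR called 0 and limma 1 as higher in Tex15KO than in Tex15HT. edgeR's call against both controls (adjusted p = 0.0176) was lost when any one control was left out (0.392 to 1). The next tile, also a member with 14 CpGs, had 74.4% and 90.2% in Tex15KO, 39.5% and 3.39% in Tex15HT, and 16.3% and 0% in Tex15WT, and was not called (edgeR adjusted p = 0.511). In the tile on the other side, all samples were between 89.7% and 100%. The pair was thus a gap in the methylation of this stretch in 3 of the 4 controls, and both Tex15KO samples were methylated across it.

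Counted without a test, 1511 members (4.82%) had both Tex15KO samples above all 4 controls and 1665 (5.31%) had both below, where all tested tiles gave 8.24% above and 4.32% below. By more than 20 points, 21 members lay above, which is 0.0669% of them, beside 0.073% of all tested tiles, and 0 lay below, beside 0.656%. A margin of 10 points gave 86 above and 8 below, beside 0.492% and 1.18%, and a margin of 30 points gave 8 and 0, beside 0.0194% and 0.456%. A level under 20% leaves little room to lie 20 points below, so the second count follows from the rule. The 21 tiles lay on 13 chromosomes, and 19 of them held under 20 CpGs. They averaged 70.9% and 54.9% in Tex15KO, 14.99% and 12.7% in Tex15HT, and 12.5% and 11.1% in Tex15WT, values that follow from the choice. Next after chr8:49427001-49428000 by size was chr3:22206001-22207000, with 100% and 84.4% in Tex15KO, 6.98% and 50% in Tex15HT, and 3.77% and 21.95% in Tex15WT. It was not called by edgeR (adjusted p = 0.206 against both controls) and was called by limma (adjusted p = 0.0290). Tile chr17:76046001-76047000 had 100% of 10 calls and 47.2% of 53 calls in Tex15KO, 9.09% and 4.48% in Tex15HT, and 12.5% and 11.8% in Tex15WT. Tile chr6:33932001-33933000, which is not among the 21 because 1 control came close to Tex15KO, had 100% and 73.7% in Tex15KO, 73.3% and 3.70% in Tex15HT, and 5.88% and 11.1% in Tex15WT. Neither was called by edgeR or limma, and in both the least covered sample had under 20 calls.

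**Figure D4:**
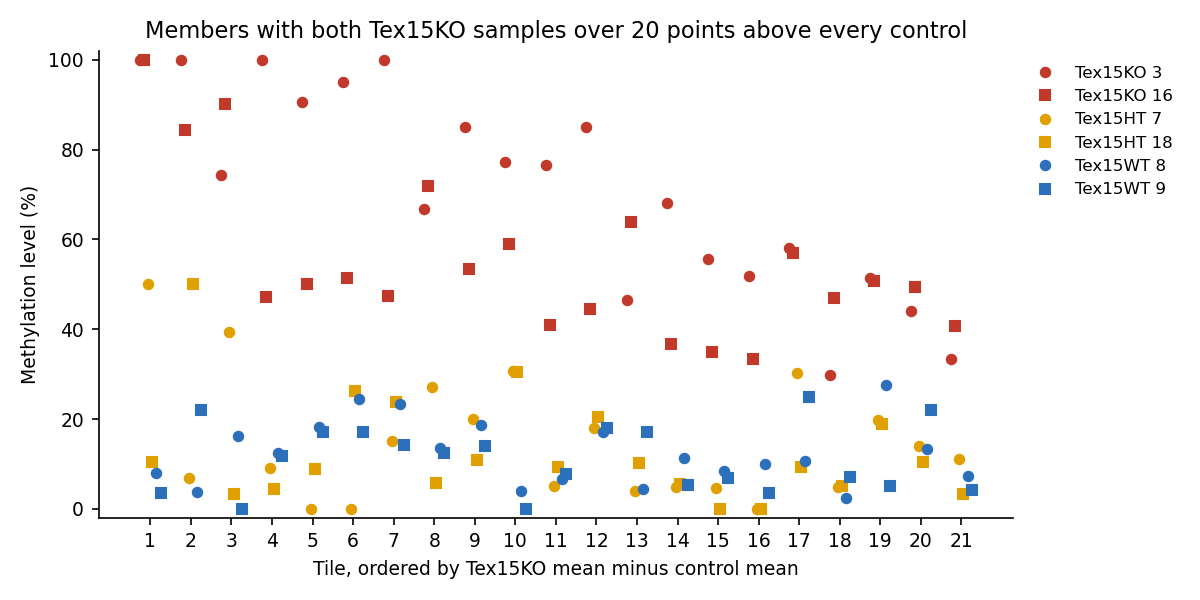
Methylation level (%, vertical axis) in each sample of the 21 members in which both Tex15KO samples lay more than 20 points above all 4 controls, ordered by the Tex15KO mean minus the control mean (horizontal axis). Tile 1 has both Tex15KO samples at 100%, and in most others Tex15KO 3 and Tex15KO 16 differ widely.

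Among the members with both Tex15KO samples below all controls, the largest differences came where the controls varied widely. Tile chr9:119872001-119873000 had 0.847% and 2.78% in Tex15KO, 54.5% and 3.08% in Tex15HT, and 5% and 29.2% in Tex15WT. Tile chr14:56331001-56332000, whose centre lay 0.424 kb from the start of Tgm1 (transglutaminase of the skin barrier), had 0% and 1.89% in Tex15KO, 34.8% and 22% in Tex15HT, and 12.1% and 14.3% in Tex15WT. The next tile, also a member, went the other way, with 28.8% and 15.9% in Tex15KO, 8.33% and 7.27% in Tex15HT, and 8.89% and 13.7% in Tex15WT. Tile chr14:55330001-55331000 had 0% and 6.35% in Tex15KO, 10.3% and 44% in Tex15HT, and 17.8% and 21.7% in Tex15WT. The other 2, on chromosome 6, had at most 6.56% in Tex15KO and at most 50% in Tex15WT. None of the 5 was called by edgeR or limma in any contrast of Tex15KO.

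Members at promoters were lower than the rest, and they held more CpGs, with a median of 32 against 18. The level fell with the number of CpGs, and a difference beyond that was not tested. The 6790 members with a placed promoter had tile means of 3.08% and 2.09% in Tex15KO, 1.85% and 1.92% in Tex15HT, and 1.98% and 2.31% in Tex15WT. The 24582 without one had 8.15% and 6.44% in Tex15KO, 5.02% and 6.05% in Tex15HT, and 5.92% and 7.60% in Tex15WT. Tex15KO 3 was the highest sample in both sets. edgeR called 0 of the 6790 for Tex15KO against Tex15WT, although 105 (1.55%) were lower and 150 (2.21%) higher before adjustment, beside 1.27% and 1.44% of all tested tiles. limma also called 0 of them. Promoter tiles of 5 genes had both Tex15KO samples more than 10 points from all controls, a choice made after their values were seen. They make 4 tiles above (0.0589% of the 6790) and 1 below (0.0147%), under the 0.492% and 1.18% of all tested tiles. Those of Gm29480, Gm36857, Gm38457 and Ppp1r3g lay above and that of Gm46800 below. Ppp1r3g, a glycogen-targeting subunit of protein phosphatase PP1, had 14.3% of 14 calls and 12.5% of 32 calls in Tex15KO and 0% in all 4 controls.

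In the wild type, the germ cell, meiosis and piRNA lists had the highest levels of the 8 gene lists read in the members. They rest on 5, 11 and 6 genes. The rule used the Tex15WT levels and left out list genes in tiles at 20% or more, so this order is a description only. The genes of each list were counted when their promoter could be placed, and edgeR called 0 of the members of any list for Tex15KO against Tex15WT. Levels given for genes are those of the whole tile and not of the 300 bp window. In Tex15KO 3 the window had no call for Lin28a, Dmc1, Hormad1, Sycp3, Tdrd7, Mest, Nnat, Ndn, Peg3, Cdh15, Mbd3 and Msx1. In Tex15WT 9 the window of D1Pas1 had 41.4% where its tile had 13.9%, and that of Mov10l1 had 1.72% where its tile had 17.2%. Of 20 germ cell identity genes, 8 were placed and 5 lay in members. Their pooled level was 0.368% and 3.91% in Tex15KO, 1.84% and 5.08% in Tex15HT, and 6.85% and 9.84% in Tex15WT. Both Tex15KO samples lay below both Tex15WT samples, and Tex15HT overlapped with Tex15KO. At an unadjusted p under 0.05, 0 of the 5 passed, beside 1.27% lower and 1.44% higher over all tested tiles. Stk31, a Tudor-domain gene of germ cells whose promoter is printed above, had 0% and 7.33% in Tex15KO, 4.55% and 1.40% in Tex15HT, and 15.6% and 14.8% in Tex15WT. D1Pas1, a germ cell RNA helicase, had 0% and 4.33% in Tex15KO, 1.46% and 7.52% in Tex15HT, and 3.50% and 13.9% in Tex15WT. Kit, the receptor for stem cell factor, was at or under 1.63% in all samples, and Lin28a, which blocks let-7 maturation, was at or under 2.97%.

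Among 27 meiosis genes, 18 were placed and 11 lay in members, with 1.54% and 4.03% in Tex15KO, 6.43% and 2.96% in Tex15HT, and 4.13% and 8.78% in Tex15WT. Of the 11, 1 was lower at an unadjusted p under 0.05 and 0 were higher, beside 1.27% and 1.44% of all tested tiles. Dmc1, the meiotic recombinase, had 0% and 2.44% in Tex15KO, 2.91% and 3.32% in Tex15HT, and 1.05% and 4.95% in Tex15WT. Tex12 and Syce3, of the central element of the synaptonemal complex, reached 9.27% and 15.2% at most, in Tex15WT 9 and Tex15HT 7. Hormad1, of the chromosome axis, ranged between 0% in Tex15KO 3 and 14.5% in Tex15WT 9. Sycp3, of the lateral element, had 0.820% and 8.78% in Tex15KO, 27.0% and 1.08% in Tex15HT, and 10.1% and 6% in Tex15WT.

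For the piRNA pathway, 9 of 23 genes were placed and 6 lay in members, with 2.92% and 9.74% in Tex15KO, 4.77% and 5.94% in Tex15HT, and 3.69% and 13.2% in Tex15WT. The groups overlapped, and 0 of the 6 passed an unadjusted p of 0.05, beside 1.27% lower and 1.44% higher over all tested tiles. Mov10l1, the helicase that passes transcripts into piRNA processing, had 11.8% and 5.04% in Tex15KO, 1.75% and 12.3% in Tex15HT, and 4.65% and 17.2% in Tex15WT. Fkbp6, a co-chaperone of PIWI loading, had 0% and 32.3% in Tex15KO, 19.8% and 11.2% in Tex15HT, and 7.41% and 26.0% in Tex15WT. Tdrkh, which tethers PIWI proteins at mitochondria, stayed at or under 5.08%, and Tdrd7, of the chromatoid body, at or under 1.09%. Dazl, a germ cell RNA-binding protein, lay outside the members in a tile of 16 CpGs at 0% and 27.0% in Tex15KO, 3.23% and 0% in Tex15HT, and 44% and 48% in Tex15WT.

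At imprinted genes with methylation of maternal origin, somatic cells carry methylation on the maternal copy, and male germ cells do not. Of 26 imprinted genes with methylation of maternal origin, 13 were placed and 8 lay in members, with 7.07% and 2.81% in Tex15KO, 4.59% and 2.72% in Tex15HT, and 2.04% and 7.13% in Tex15WT. Low control levels there follow from the choice of members and are no check of the germ cell label. Mest, a hydrolase-like gene, had 0% and 1.48% in Tex15KO, 0% and 4.301% in Tex15HT, and 0.645% and 4.08% in Tex15WT. Peg3, a zinc finger gene, was at or under 7.14%, and Nnat, a brain proteolipid, was at or under 15.2%. Ndn and Mcts2 were at or under 2.80% and 11.4%. Plagl1, a zinc finger gene, stood at 100% in Tex15KO 3, from 36 calls, and at 6.25% in Tex15KO 16, against 1.25% and 0% in Tex15HT and 14.5% and 4.69% in Tex15WT. Zrsr1, a splicing factor gene in a tile of 8 CpGs and so outside the members, had 14.9% and 8.70% in Tex15KO and 0% in all 4 controls. Cdh15, a cadherin gene, was the imprinted gene placed in a CpG-rich tile that the controls left out, with 40% and 34.5% in Tex15KO, 26% and 44.6% in Tex15HT, and 44.7% and 39.4% in Tex15WT. Of the 12 promoters taken as markers of male germ cells, 8 could be placed, and 5 of these lay in members. Ddx4, a germ cell RNA helicase, was a marker outside them, with no call in Tex15KO 3, 12.6% in Tex15KO 16, 0% and 6.67% in Tex15HT, and 29.3% and 10.3% in Tex15WT. Dazl, given above, was the marker with the highest level in Tex15WT. The markers thus did not all read as unmethylated in Tex15WT, and the part of other cells in these values was not tested.

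DNA methylation machinery was placed for 13 of 27 genes, and 12 of them lay in members. Their level was 0.129% and 1.16% in Tex15KO, 1.49% and 1.19% in Tex15HT, and 1.39% and 1.49% in Tex15WT. Tet2, a dioxygenase that oxidises methylcytosine, reached 1.38% at most, Uhrf1, which brings DNMT1 to newly copied DNA, 1.26%, and Mbd3, of the NuRD complex, 2.10%. Ehmt1, an H3K9 methyltransferase, stayed at or under 1.205%. None of the 12 passed an unadjusted p of 0.05, beside 1.27% lower and 1.44% higher over all tested tiles.

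Most promoters of developmental regulators in members were at low levels, which in the controls follows from the rule. Of 39 Hox genes, 13 were placed and 11 lay in members, with 2.65% and 0.742% in Tex15KO, 0.602% and 1.01% in Tex15HT, and 0.403% and 1.26% in Tex15WT. Before adjustment 2 were higher at p under 0.05, Hoxb8 and Hoxd11, where 1.44% of all tested tiles were. Hoxd10 had 0.417% and 0.543% in Tex15KO, 0% and 0.613% in Tex15HT, and 0.588% and 0% in Tex15WT, and Hoxd1 was at or under 0.976%. Hoxb8, named after its values were seen, had the highest level of the list, with 71.4% of 14 calls in Tex15KO 3 and 1.27% of 79 calls in Tex15KO 16, against 2.04% and 0% in Tex15HT and 0% in both Tex15WT samples. Hoxd11 had 14.9% in Tex15KO 3 and 0.645% in Tex15KO 16, with 0% in all controls. In both genes Tex15KO 3 alone stood far above the rest. Other developmental transcription factors were placed for 29 of 74 genes, of which 28 lay in members, at 2.01% and 0.905% in Tex15KO, 1.29% and 0.778% in Tex15HT, and 0.665% and 1.23% in Tex15WT. Among them, Neurog1, which starts neurogenesis, was at or under 0.641%, and Msx1, a homeobox gene, at or under 1.85%. The highest level of that list was 18.6%, for Lhx1 in Tex15KO 3. Emx2 reached 5.56%, in Tex15KO 3, and Meis1 reached 3.85%, in Tex15HT 7.

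Housekeeping genes gave the level of promoters in use in all cells. Of 50, 30 were placed and 26 lay in members, with 1.40% and 0.901% in Tex15KO, 0.851% and 0.639% in Tex15HT, and 0.607% and 0.942% in Tex15WT. Ppia (cyclophilin A) was at or under 0.678% in every sample, Hnrnpa2b1 at or under 1.13%, Rplp0 at or under 1.65% and Eef2 at or under 1.55%. Of the 26, 1 was lower at an unadjusted p under 0.05 and 0 were higher, beside 1.27% and 1.44% of all tested tiles. Across the 8 lists, Tex15KO averaged between 0.645% (DNA methylation machinery) and 6.33% (piRNA pathway), Tex15HT between 0.745% and 5.35%, and Tex15WT between 0.775% and 8.42%.

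**Figure D5:**
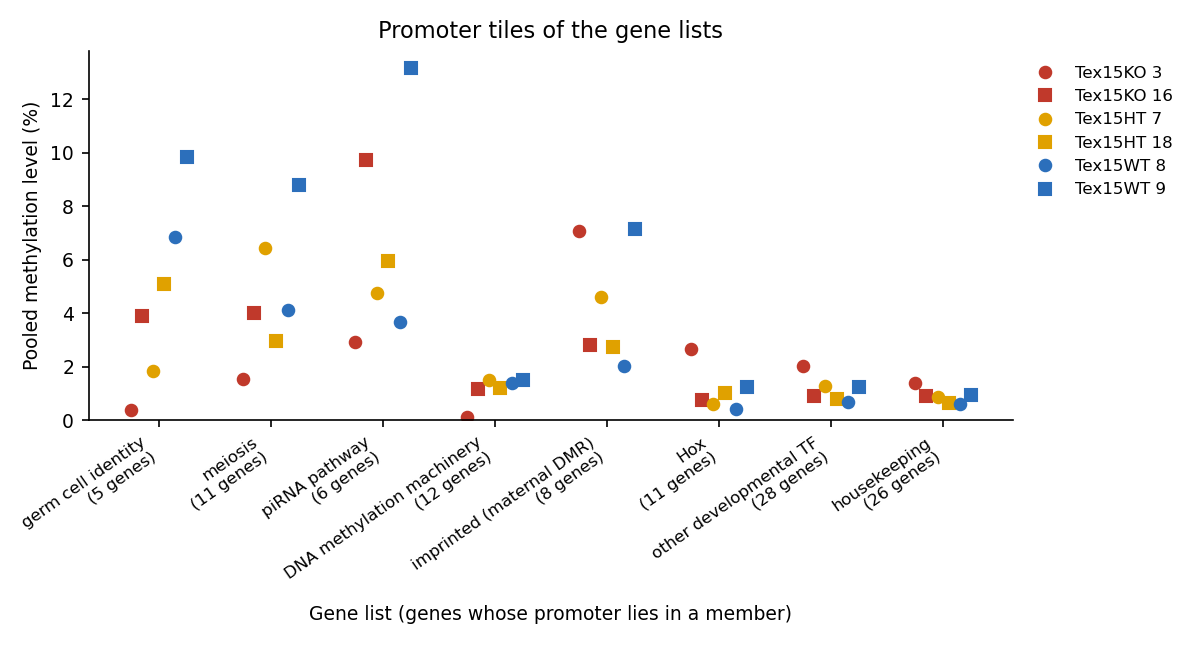
Pooled methylation level (%, vertical axis) of the member tiles that hold the promoters of each gene list (horizontal axis, with the number of genes), 1 point per sample. The germ cell, meiosis and piRNA lists reach up to 13.2%, in Tex15WT 9, while DNA methylation machinery, developmental and housekeeping lists stay at or under 2.65%.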

How the data were processed

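The deposited table holds whole-number counts of total, methylated (C) and unmethylated (T) calls per cytosine, made by the authors with BSMAP, Bismark and methylKit on mm9, per the submitters' processing notes. Tool versions, the lambda conversion rate and any removal of duplicates: not given in the sources used here. The labels do not give the deleted part of Tex15, so the genotypes were not checked here.

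Strands were merged and calls summed per tile. Total calls per sample ranged between 27495658 and 52935635. Every tile with 3 or more CpGs and 10 or more calls per sample was fitted with edgeR 4.0.16 (R 4.3.3): quasi-likelihood test of methylated against unmethylated counts, an intercept per sample, and a common dispersion from 20000 tiles. limma 3.58.1 on log2((C + 1)/(T + 1)) was an alternative. Levels were compared by exact permutation over samples. Both fits were tested on simulated data. Permutation p-values rest on the spread between single pups. Those of edgeR also rest on a dispersion shared over tiles. In deeply covered tiles they therefore need not reflect how far the pups of 1 genotype differed there.

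RefSeq promoters (GRCm38.p6) were placed on mm9 by CpG spacing: 6 or more matched CpGs, a margin of 2 over the next place, and a shift within 20 kb of a neighbouring window. Of 17846 windows with enough CpGs, 11230 found a place and 10938 passed the shift check, against 1698 and 7 mirrored windows.

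The members, gene lists and tests were chosen with earlier results of these data known. Tiles named are the 5 with the largest increases and the 5 with the largest decreases among members whose Tex15KO samples both lay beyond all controls, those with most CpGs or calls, the longest runs and, chosen after their values were seen, all called tiles; genes are the 4 of each list with most calls, markers and neighbours of named tiles. Alternatives were other minimums of calls and CpGs, other thresholds, coverage without its top 0.1%, means over tiles, limma, and each sample left out.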

Additional observations from a re-analysis of the deposited data

How the results depend on the processing

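The sign of most differences in level of members was not stable. Tex15KO minus Tex15WT in members (-0.337 points) became 0.132 without the top 0.1% of coverage, 0.516 as a mean over tiles and 0.0968 without the 18 deepest members, an alternative chosen after seeing the data. Leaving out 1 sample gave -0.912 to 0.237. Tex15KO minus controls (0.00586) became -0.257 at 30 calls, -0.312 at 20 CpGs, -0.764 at a threshold of 30% and -0.320 with the minimum and values taken without Tex15KO 3, and -0.428 to 0.440 with 1 sample left out. In tiles chosen on Tex15HT, Tex15KO minus Tex15WT (-0.575) became 0.0824 as a mean over tiles, and -1.19 to 0.0441 with 1 sample left out. In tiles chosen on Tex15WT, Tex15KO minus Tex15HT (0.190) became -0.0588 at 30 calls, -0.161 at 20 CpGs, -0.228 at 30% and -0.146 without Tex15KO 3, and -0.253 to 0.633 with 1 sample left out. Tex15HT minus Tex15WT and the flank difference kept their sign under every alternative run. Without the top 0.1% of coverage, edgeR called 0 members for Tex15KO against Tex15WT, 0 against Tex15HT and 1 against both controls; limma called 1, 1 and 2; a difference of 10 points or more left 1, 0 and 2; and at 30 calls 10 were called against Tex15HT. With 1 sample left out the counts ran between 5 and 1589 against Tex15WT, between 3 and 1549 against Tex15HT and between 5 and 2245 against both controls, the highest in each case without Tex15KO 16, when Tex15KO 3 stands alone and is assumed to vary like the other groups. The 21 members more than 20 points above all controls became 8 at 30 calls, 2 at 20 CpGs, 7 at a threshold of 10%, 33 at 30%, 73 when Tex15KO 3 set no minimum and was not read, 25 to 2104 with 1 sample left out, 86 at a margin of 10 points and 8 at 30 points. The call of chr8:49427001-49428000 against both controls was lost without any one control (edgeR adjusted p between 0.392 and 1), and that of chr1:193220001-193221000 likewise (0.0931 to 0.307) and without the top 0.1% of coverage (0.729). Causes of these changes were not tested. No paired analysis was possible because the groups share no replicate number. Depth limits single tiles: at 10 calls a level moves in steps of 10 points.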

Other observations

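One promoter outside the members, chosen after its values were seen, stood at a different level in each genotype. The CpG-rich tile chr17:35642001-35643000 (mm9, 13 CpGs) with the promoter of Pou5f1, which encodes the pluripotency factor OCT4, had 3.86% and 12.7% in Tex15KO, 51.0% and 50.2% in Tex15HT, and 79.2% and 75.2% in Tex15WT. The groups did not overlap. edgeR's adjusted p for Tex15KO against Tex15WT was 0.000105, and limma's was 0.0569. The other 2 pairs were not called by edgeR (adjusted p = 0.170 for Tex15KO against Tex15HT and 1 for Tex15HT against Tex15WT). The tile had 45.0 calls per CpG, against 3.2 in a typical CpG-rich tile. The cells were sorted by an Oct4-GFP reporter, and whether these reads came from the gene or from the reporter was not tested.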
